A study of Homo sapiens with 6 samples.

Results

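Short 3′ UTRs were examined in RNA immunoprecipitation and sequencing (RIP-Seq) data of CELF1 (CUGBP1) from 2 human melanoma cell lines. The bins were 20-bp windows listed in all 3 IP samples, with the centre in the 3′ UTR of a protein-coding gene whose merged 3′ UTR was under 300 nt. Ribosomal protein genes with symbols starting RPL or RPS were left out. This gave 1735 bins in 491 genes, of 282942 bins listed in all 3 samples and of 7216 genes with a common bin in the 3′ UTR. The annotation held 2826 genes with such a short 3′ UTR, so that 17.4% of them had a common bin, against 41.1% of the genes with a longer one.

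The groups were an anti-CUGBP1 IP and an input of untreated SK-Mel-103 cells (1 sample each) and of untreated UACC-62 cells (2 each, replicates 1 and 3). SK-Mel-103 carries mutated NRAS and UACC-62 mutated BRAF, and each is an established line, so that the UACC-62 replicates are samples of 1 line. All cells were fixed with formaldehyde, and every IP used the same antibody. Each IP was set against its own input, and IgG immunoprecipitates were not analysed here. Values below follow the order SK-Mel-103, UACC-62 replicate 1, UACC-62 replicate 3 unless a sample is named. IP reads in the lists totalled 10958459, 11333805 and 14436573, and those of the inputs 8453517, 10161917 and 8900292. Of 10 melanocyte lineage markers, 5, 8 and 8 had listed bins, of 5 fibroblast markers 1, 1 and 2 (LUM with 10, 239 and 137 input reads), of 3 immune markers 0, 1 and 1 (PTPRC with at most 3 input reads) and of 3 keratinocyte markers none.

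CELF1 is an RNA-binding protein of the CUG-BP and ETR-3-like family that recognizes UGU- and GU-rich stretches, collectively called GU-rich elements (GREs), mainly in 3′ UTRs. Bound mRNAs can be deadenylated and degraded, stabilized or translated differently. Short 3′ UTRs are typical of abundant housekeeping mRNAs, such as those of respiratory chain subunits, the proteasome and replication-dependent histones, and leave little room for regulatory elements.

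The strongest bins of 5 of the 6 3′ UTRs with the highest IP over input, ranked by their lowest sample, are printed first, because they show what RNA lay under the signal. CDCA2, which also ranks among the 6, is described by its values only. Each is the 20-nt bin with the most IP reads in the weakest sample, on the transcript strand of GRCh37, with every UGU in capitals.
UBE2C: agcUGUgguauuuuUGUuuu
CLTA: gggaagcuucccaagaguag
GSN: guuugggaaauuaaauccaa
COPRS: uuUGUGUcaagaggaguUGU
AURKB: uuaauaaaggcugaagcuuu

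The UBE2C bin (chr20:44445501-44445520, plus strand) held 2 UGU triplets in a U-rich context, with 936, 1065 and 1239 IP reads over 125, 99 and 88 input reads. The COPRS bin (chr17:30178921-30178940, minus strand) held 3 UGU triplets and 110, 159 and 261 IP reads. The bins of CLTA (chr9:36211981-36212000, plus strand), GSN (chr9:124095081-124095100, plus strand) and AURKB (chr17:8108061-8108080, minus strand) held none, and the AURKB bin covered the polyadenylation signal AAUAAA. The 32 bases centred on each of these 5 bins occurred once in the genome.

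GREs were taken as 11-nt stretches of UG or UGUU repeats with up to 2 mismatches. The best match is shown for those of the 10 highest genes in that ranking that had one, because 2 of them are uninterrupted UG repeats. The 11 nt are in capitals and the flanks in lower case. HSPA1A is among the 10 although its log2 IP over input was near 0 (0.16, -0.10 and 0.18).
GSN: ugcuaugagUGUGUGUGUGUguguguguu
COPRS: uccuugaaaUGUGUGUGUGUuugugucaa
AURKB: gggugcgugUGUUUGUAUGUcuguguaug
CLTA: uagaguuguUCAUUGUUUGUgauugcaug
HSPA1A: uuccuaguaUUUCUGUUUGUcaguucuca

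The stretches of GSN (chr9:124094970-124094998, plus strand) and COPRS (chr17:30178931-30178959, minus strand) had 0 mismatches and that of AURKB (chr17:8108141-8108169, minus strand) had 1. The stretches of CLTA (chr9:36211886-36211914, plus strand) and HSPA1A (chr6:31785510-31785538, plus strand) had 2. UBE2C, the highest gene by its lowest sample, had no stretch within 2 mismatches, and its best one had 3.

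IP over input was then summed over the common bins of each 3′ UTR, divided by the IP and input totals of the lists, and expressed as log2 with 1 read added to both sums. No test was run, because a bin was listed only where IP reads had passed against input, input reads were known only in such bins, and SK-Mel-103 had 1 sample. The median over the 491 genes was -1.14, -2.04 and -1.81 in the 3 samples. Over all 7216 genes it was -0.30, -0.75 and -0.59, so that genes of short 3′ UTRs lay lower by 0.84, 1.29 and 1.22 on the log2 scale. Their values were below 0 in all 3 samples for 416 genes (84.7%), against 50.1% of the genes with longer 3′ UTRs.

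A gene was called over input where log2 IP over input was at least 1, a 2-fold difference, in every sample, and under input where it was -1 or lower in every sample. UBE2C and CLTA were the 2 genes of short 3′ UTRs over input (0.407%, Wilson 95% interval 0.112 to 1.47%), where the background over all genes was 11.4%. Under input were 265 genes (54.0%, interval 49.5 to 58.3%), where the background was 20.8%. Centred on the median of all genes, the calls were 7 over and 156 under input among the short 3′ UTRs, with backgrounds of 17.9% and 8.65%. Undivided by the totals, they were 7 and 148. Genes over input numbered 6 of 571 without UACC-62 replicate 1 and 4 of 540 without replicate 3, with UBE2C and CLTA among them both times. Backgrounds were not computed for undivided values or for leaving out a replicate. The intervals cover counting error over genes only.

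The ratio differed with 3′ UTR length across the whole range. In SK-Mel-103 the median was -1.26 for 3′ UTRs under 100 nt, -1.10 from 100 nt to under 200 nt, -1.11 from 200 nt to under 300 nt, -0.96 from 300 nt to under 500 nt and 0.28 for 4000 nt or more. In UACC-62 replicate 1 it was -2.29, -2.05, -1.87, -1.67 and 0.06 in the same classes, and in replicate 3 it was -1.93, -1.82, -1.73, -1.55 and 0.24. The share of genes under input was 61.1% under 100 nt, 49.8% from 200 nt to under 300 nt and 8.69% at 4000 nt or more. Calls over input were 0 of 260 genes below 200 nt, 2 of 231 from 200 nt to under 300 nt and 356 of 1691 at 4000 nt or more. There was no step at 300 nt: the 37 genes up to 20 nt below the limit had medians of -0.87, -1.56 and -1.28, and the 49 less than 20 nt above it had -0.75, -1.53 and -1.60.

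**Figure D1:**
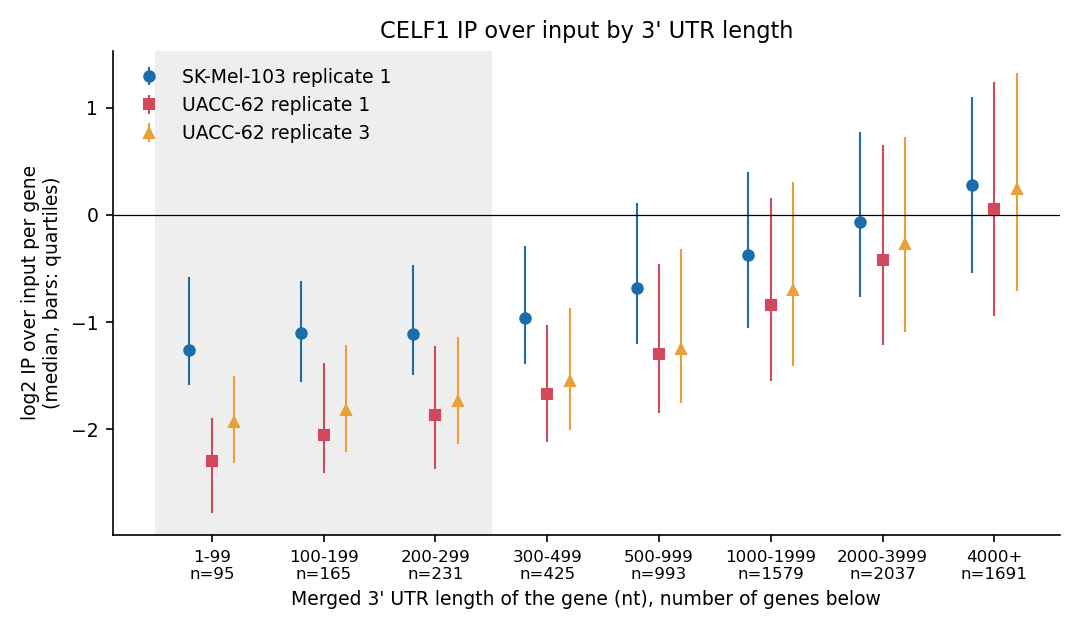
Median log2 IP over input per gene (y axis; bars are quartiles) by merged 3′ UTR length in nt (x axis, number of genes under each class) in the 3 samples, with the classes under 300 nt shaded. The medians ran from -1.26, -2.29 and -1.93 under 100 nt to 0.28, 0.06 and 0.24 at 4000 nt or more.

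Input level moved with length and with the ratio. The median input per bin was 37.9 reads for genes of short 3′ UTRs and 11.9 for the others, and 75.2% against 27.8% of the genes had 20 or more. The lowest listed IP count depended little on input up to about 100 input reads. At 90 to 110 input reads, a bin was listed from 5, 5 and 4 IP reads on, a log2 of -4.45, -4.23 and -5.03, whereas a bin without input was listed from 6, 5 and 4 IP reads on, a log2 of 2.43, 2.43 and 1.62. At 900 to 1100 input reads the lowest listed count was 110, 15 and 6. Low ratios could therefore be listed only where input was high.

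At like input the gap to longer 3′ UTRs was smaller. At 20 to 40 input reads per bin, the 136 genes of short 3′ UTRs had medians of -1.11, -1.94 and -1.75 and the 1279 others -0.999, -1.65 and -1.46. At 40 to 80 reads the medians were -1.39, -2.26 and -2.07 (117 genes) against -1.20, -2.002 and -1.78 (429 genes). At 160 reads or more they were -1.32, -2.60 and -2.02 (53 genes) against -1.47, -2.38 and -1.96 (44 genes), so that SK-Mel-103 lay the other way there. Among genes with 20 or more input reads per bin, 2 of 369 were over and 249 (67.5%) under input, with backgrounds of 2.41% and 53.9%. How much of the difference in the ratio belongs to length and how much to input level was not tested.

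**Figure D2:**
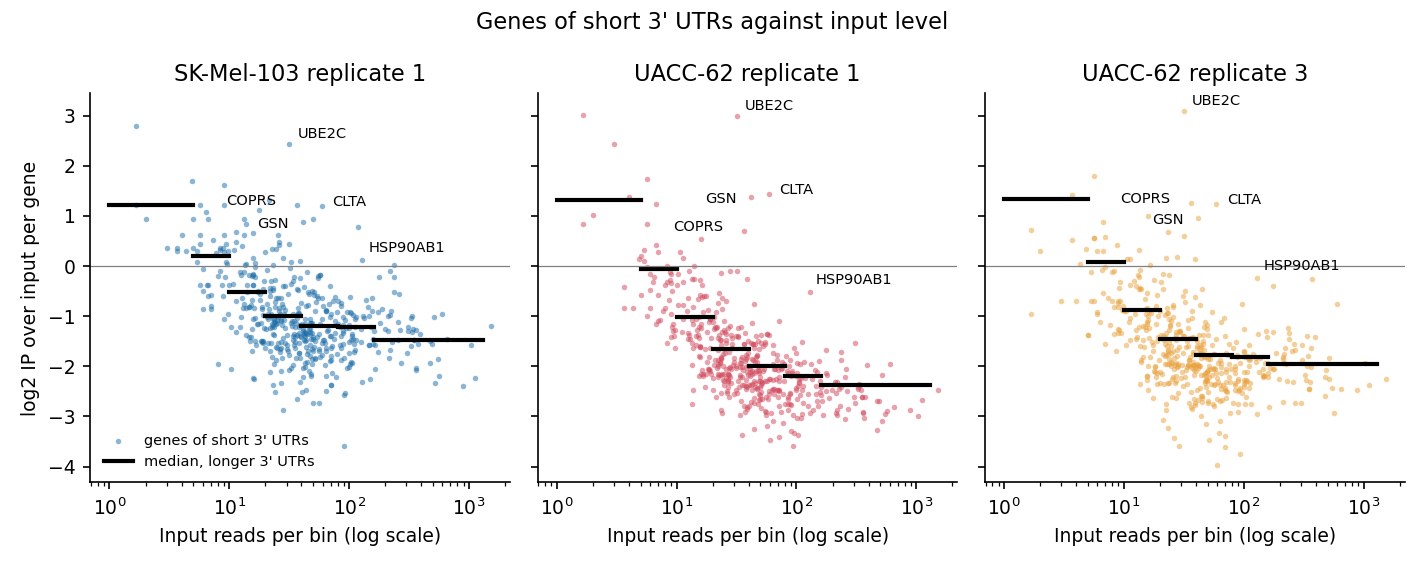
Log2 IP over input of each gene of a short 3′ UTR (points, y axis) against its mean input reads per bin (x axis, log scale) in the 3 samples, with medians of the genes of longer 3′ UTRs per input class as black bars. UBE2C, CLTA, GSN and COPRS lay far above the bars of their input class in all 3 panels.

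The highest values, ranked by the lowest sample among the 204 genes with 3 or more common bins and over 30 IP reads in each sample, belonged to genes of diverse function. UBE2C encodes the E2 ubiquitin-conjugating enzyme of the anaphase-promoting complex. Its 3′ UTR of 285 nt (chr20:44444517-44445596, plus strand, 2 blocks) had 11 common bins of 15 possible ones. It gave 2666, 3269 and 4088 IP reads against 380, 369 and 295 from input. The SK-Mel-103 sample reached a log2 IP over input of 2.43 and the UACC-62 mean was 3.04 ± 0.07 (SD, n = 2). All samples were high, and the SK-Mel-103 value lay below both of UACC-62. Of its bins, 3 were also coding in another transcript and 2 had a copy elsewhere in the genome.

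CLTA encodes clathrin light chain A of coated vesicles. Its 3′ UTR (chr9:36211772-36212058, 287 nt) had 12 common bins of 14, with 1591, 2536 and 2886 IP reads over 534, 841 and 749 input reads. The log2 ratio was 1.199 in SK-Mel-103, and the UACC-62 mean was 1.34 ± 0.13 (SD, n = 2), so that the samples differed little.

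GSN encodes gelsolin, an actin-severing protein, and carries the long UG repeat printed above. Its IP reads were 155 in SK-Mel-103 against 2205 and 1730 in UACC-62, over 64, 758 and 546 input reads. The log2 ratios were 0.89, 1.38 and 0.96, so that the lines were close in the ratio although SK-Mel-103 had far fewer input reads. COPRS, a cofactor of the arginine methyltransferase PRMT5, had 792, 866 and 1801 IP reads over 261, 480 and 463 input reads. Its log2 ratios were 1.22, 0.69 and 1.26, with UACC-62 replicate 1 the lowest.

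AURKB, the Aurora B kinase of the chromosomal passenger complex, had 192 IP reads in SK-Mel-103 and 233 or more in each UACC-62 replicate, over 93, 143 and 98 input reads. Its log2 ratios of 0.66, 0.54 and 0.99 were above 0 in every sample and did not reach 2-fold. All 7 possible bins of its 3′ UTR of 138 nt were common. CDCA2, a mitotic regulator of protein phosphatase 1, had 56, 62 and 106 IP reads over 22, 23 and 35 input reads. Its log2 ratios were 0.93, 1.23 and 0.87, and 16 further common bins lay within 500 nt past the annotated end of its 3′ UTR. Whether these cells use the annotated 173 nt was not tested.

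TACC3, a spindle protein, had log2 ratios of 0.35, -0.12 and 0.42 on 31, 41 and 34 input reads. MFSD5, a membrane transporter family protein, had 1.70, 0.14 and 0.35 on 8, 34 and 31 input reads, so that its SK-Mel-103 value rested on 8 reads. HSPA1A, an inducible HSP70 chaperone, had 0.16, -0.10 and 0.18. The gene model ENSG00000198211, without a symbol in the annotation, had -0.03, -0.10 and 0.60, and its bins also belonged to the longer 3′ UTR of TUBB3. All 4 were near or below 0 in 1 sample or more, and were nevertheless among the 10 highest of these 204 genes.

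**Figure D3:**
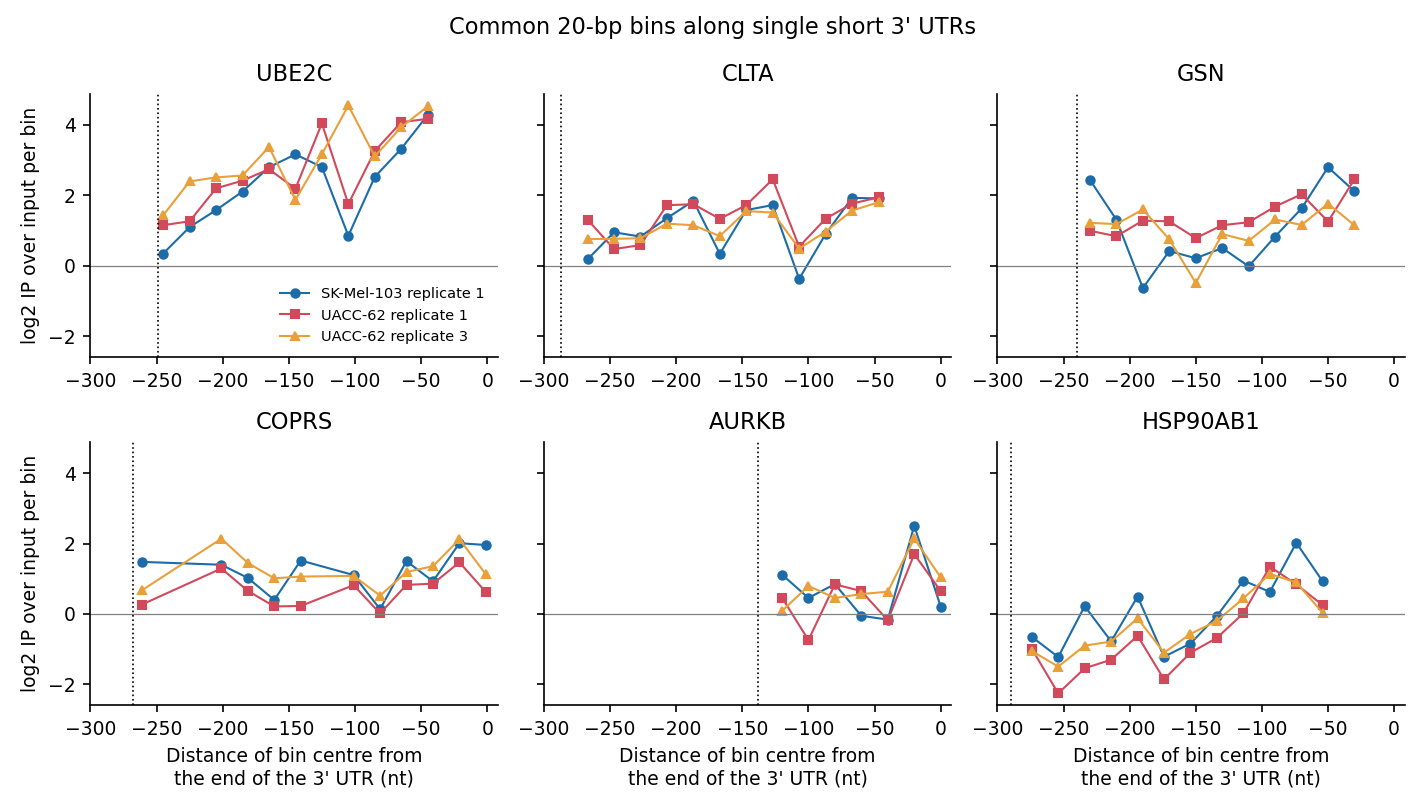
Log2 IP over input per common 20-bp bin (y axis) by distance of the bin centre from the 3′ end of the 3′ UTR in nt (x axis) for 6 genes, with one line per sample and a dotted line where the last block begins. UBE2C and HSP90AB1 were higher towards the end, AURKB was highest in the bin 20 nt from it, and CLTA and COPRS were above or near 0 along their whole length.

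Within single 3′ UTRs the bins were uneven. In UBE2C the bin 245 nt from the end had log2 ratios of 0.34, 1.15 and 1.43, and the bin 45 nt from the end 4.28, 4.17 and 4.52. The former bin was also coding in another transcript, and the latter was not. In HSP90AB1, which encodes the constitutive HSP90 chaperone, the bin 254 nt from the end had -1.22, -2.26 and -1.49, and the bin 74 nt from the end 2.02, 0.84 and 0.90. Its 3′ UTR of 290 nt as a whole had 1605, 1449 and 2261 IP reads and log2 ratios of 0.12, -0.52 and -0.24, on 129 input reads per bin. Of its 12 bins, 7 had a copy elsewhere in the genome, both bins quoted here among them. TopHat could place a read at up to 20 sites, so that the contrast between these bins is uncertain to that extent.

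Medians were higher far from the stop codon than next to it, in short and in longer 3′ UTRs, although not at every step between. In genes with a 1-block 3′ UTR, the bins 0 to 49 nt after the stop codon had medians of -1.14, -2.10 and -1.79 in the 3 samples, those at 150 nt to under 200 nt had -0.86, -1.79 and -1.56, and the 31 bins of 23 genes at 250 nt or more had -0.30, -1.57 and -0.98. In longer 3′ UTRs the same windows had -0.44, -0.99 and -0.72, then -0.11, -0.64 and -0.48, and, from 250 nt to under 300 nt, -0.01, -0.42 and -0.31. The genes differ between windows, since the far ones exist only in the longest of the short 3′ UTRs. Of the possible bins 0 to 49 nt after the stop codon, 42.0% were common in genes of short 3′ UTRs that had a common bin and 23.6% in those of longer ones. Over the whole 3′ UTR of such genes, the median share in common bins was 36.4% against 10.98%, and 27 short 3′ UTRs were covered completely. Only genes with a common bin entered these shares, and 1 bin is a large part of a short 3′ UTR. CDC20, for example, reached 25% with 1 bin of 4. Both gaps therefore depend on this choice of genes.

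Neighbouring bins share 40-nt reads, so bins of 1 gene are not separate measurements. Of the 491 genes, 169 had 1 common bin and 245 had 3 or more. The 1735 bins had from 4 IP reads up to 936, 1065 and 1239, with medians of 19, 14 and 20. No bin lacked input in all 3 samples, and 0.541% of the bins of longer 3′ UTRs did. Of the 3839 bins of short 3′ UTRs listed in any sample, 45.2% were listed in all 3, against 35.2% for longer ones.

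The 5 lowest of the same 204 genes, ranked by their highest sample, were FTL, GAPDH, ATP5PD, NDUFB8 and CAVIN3. FTL, the ferritin light chain that stores iron, had 756, 713 and 1605 IP reads over 3083, 4657 and 5510 input reads and log2 ratios of -2.40, -2.86 and -2.48. GAPDH, the glycolytic dehydrogenase, had 1564, 1891 and 2157 IP reads over 5669, 10815 and 6913 input reads and log2 ratios of -2.23, -2.67 and -2.38. GAPDH thus gave about as many IP reads as CLTA in SK-Mel-103, on a far higher input. The subunits ATP5PD of ATP synthase and NDUFB8 of respiratory complex I had -2.31, -2.93 and -2.96, and -2.20, -2.56 and -2.46. CAVIN3, a coat protein of caveolae, had -2.37, -2.48 and -2.64. After division by the totals, all 5 were under input by over 4-fold in every sample. A copy elsewhere in the genome existed for 4 of 5 bins of FTL and 4 of 7 of GAPDH. It existed for 1 of 3 bins of ATP5PD, 1 of 4 of NDUFB8 and none of CAVIN3.

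Several of the genes with the largest share of IP reads lay below 0 in every sample as well. TUBA1B, an alpha-tubulin, had 2447, 1794 and 5942 IP reads over 3676, 6238 and 6231 input reads and log2 ratios of -0.96, -1.95 and -0.77, with an SD of 0.84 between the UACC-62 replicates (n = 2). HSPA8, the constitutive HSC70 chaperone, had -1.46, -2.82 and -2.46. TMSB10, which sequesters actin monomers, had -1.56, -2.68 and -2.07. NME2, a nucleoside diphosphate kinase, had -1.47, -2.61 and -2.45, and the readthrough model NME1-NME2 shares its 11 bins. Among the 10 genes with the largest share of IP reads, UBE2C, CLTA and COPRS were above 0 in every sample and these were not, so that a large share occurred with high and with low ratios.

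**Figure D4:**
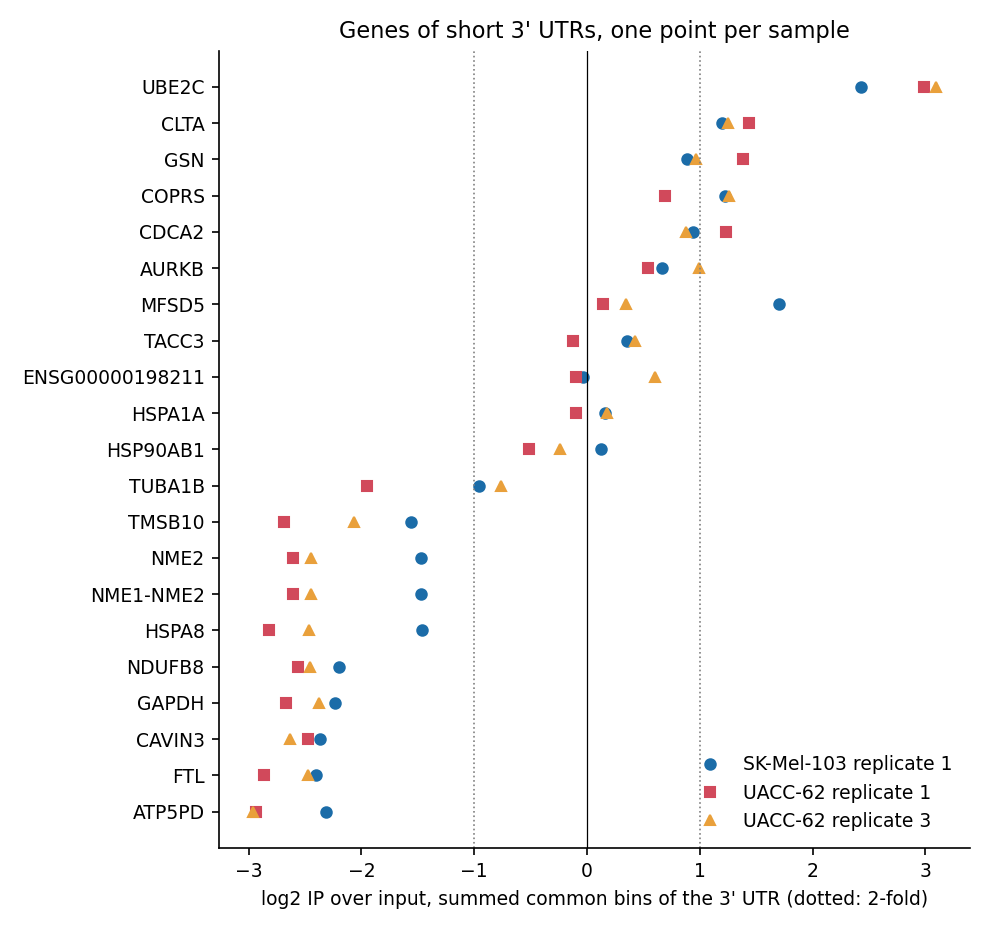
Log2 IP over input (x axis, dotted lines at 2-fold) of the genes with the highest ratios, the lowest ratios or the most IP reads (y axis), one point per sample. UBE2C and CLTA lay above 1 in every sample, and FTL, GAPDH, CAVIN3, ATP5PD and NDUFB8 below -2 in every sample.

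Gene groups were read against the 54.0% under input among all genes of short 3′ UTRs, beside the 20.8% of all genes. Among genes with 20 or more input reads per bin, the share was 53.9% of all genes and 67.5% of those with short 3′ UTRs. Every group with common bins had a median of over 20 input reads per bin. How far the group shares follow from input level was not tested. Of the replication-dependent histones, which end in a stem-loop and mostly lack a poly(A) tail, 53 of 66 had a short 3′ UTR, 32 had common bins, 23 were under input and none over. Their medians were -1.31, -2.60 and -1.90 on a median of 246 input reads per bin. H1-5 had -1.94, -3.27 and -2.58, H4C8 had -1.32, -2.36 and -1.999 and H3C2 had -1.35, -1.98 and -1.42. Near-identical histone copies can share reads, and their values are uncertain to that extent.

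Of the oxidative phosphorylation subunits, 36 short 3′ UTRs had common bins, 27 were under input and none over, with medians of -1.28, -2.40 and -2.26. All 36 were below 0 in every sample, as were 84.7% of all genes of short 3′ UTRs and 50.1% of those of longer ones. They were also below 0 when centred on the median of all genes, for which no such share is given here. Their median input was 82.1 reads per bin. ATP5F1B, the catalytic beta subunit of ATP synthase, had -1.59, -2.41 and -2.27, UQCRH of complex III had -0.98, -2.31 and -1.93 and COX7A2 of complex IV had -1.26, -2.48 and -2.25. ATP5MC2 was the highest of the 4 with the most IP reads, at -0.93, -1.63 and -0.76. The 45 subunits with longer 3′ UTRs had medians of -1.03, -2.17 and -1.89.

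Mitochondrial ribosomal proteins had 12 of 16 genes under input and medians of -1.34, -2.17 and -2.07. MRPS15, chosen after its value was seen, had the highest ratio of all short 3′ UTRs in SK-Mel-103, 2.80, against 3.01 and -0.96 in the other samples, on 1 bin with 8, 8 and 4 IP reads over 0, 0 and 5 input reads. Mitochondrial import subunits had 2 of 3 under input, and TOMM7 of the outer membrane complex had -1.001, -2.53 and -1.82.

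All 15 short 3′ UTRs of proteasome subunits had common bins, and 12 were under input, with medians of -1.40, -2.48 and -2.13. PSMA6 of the core particle had -1.47, -2.73 and -2.33, PSMD6 of the regulatory particle had -0.89, -2.45 and -2.02 and PSMB1 had -0.65, -1.38 and -1.46. The 32 subunits with longer 3′ UTRs had -1.02, -1.87 and -1.77. All 8 genes of ER translocation and glycosylation were under input, with medians of -1.64, -2.28 and -2.09. SEC61B of the translocon had -1.76, -2.30 and -2.05, OST4 of the oligosaccharyltransferase had -1.55, -2.53 and -2.26 and DAD1 had -1.39, -1.96 and -1.78. The 27 genes of that group with longer 3′ UTRs had -0.67, -1.20 and -1.26, with 8 under and 1 over input.

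Further groups had at most 10 genes with common bins each, and their shares lay on both sides of the 54.0% of all short 3′ UTRs. Translation factors had 5 of 8 genes under input, and EIF6, which keeps ribosomal subunits apart, had -1.51, -2.47 and -2.28. EEF1G of elongation factor 1 had -1.55, -2.61 and -0.26, with 407 input reads in UACC-62 replicate 3 against 1718 in replicate 1. Chaperones had 5 of 10 under input, cytoskeletal proteins 4 of 6, S100 proteins 3 of 4, genes of iron and redox handling 4 of 4 and glycolysis 2 of 2. PFN1, profilin, had -1.72, -2.50 and -2.06, and GPX4, the lipid peroxide reductase, had -1.24, -1.98 and -1.32. Spliceosomal Sm and LSM proteins had 3 of 6 under input, lysosomal and V-ATPase genes 2 of 4 and RNA polymerase subunits 1 of 4. The 7 metallothioneins with short 3′ UTRs had no common bin.

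Of ubiquitin and E2 enzymes, UBE2C was over input, whereas UBB, a polyubiquitin gene, was under input with -1.49, -2.69 and -2.21. In the mitosis and DNA replication group, AURKB was above 0 in every sample. CDC20, the mitotic activator of the anaphase-promoting complex and thus a partner of UBE2C, had -1.47, -3.38 and -2.32 on 1 bin of 4, and CKS2, a cyclin-dependent kinase subunit, had -0.92, -1.95 and -1.80. A list of 28 genes from the study's CELF1 network, which leaves out part of that network and was drawn by the study with these samples, so that it is no separate evidence, had 4 members with short 3′ UTRs. Of these UBE2C was over input, CDC20 and RFC4 were under input and AURKB was neither. MIA of the melanocyte lineage had -0.96, -1.09 and -1.74, and the cytokine MIF had -0.90, -1.89 and -1.29.

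**Figure D5:**
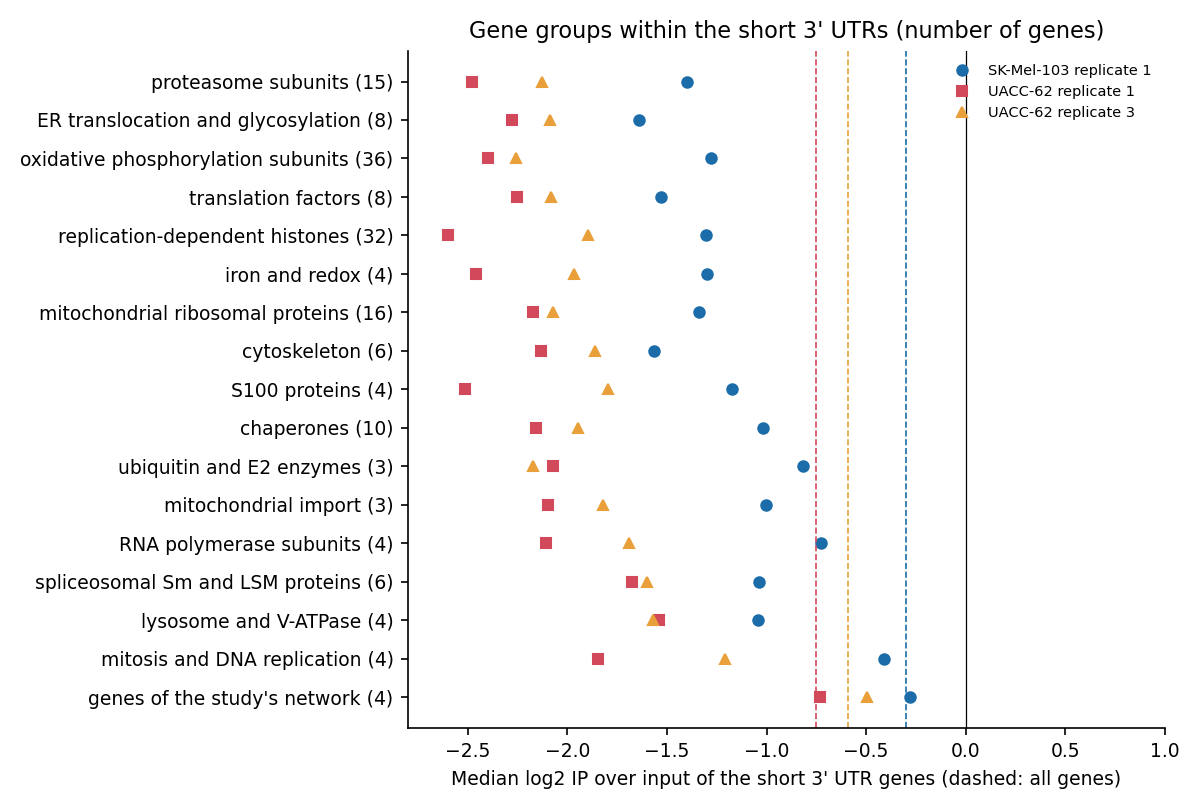
Median log2 IP over input (x axis) of the short 3′ UTR genes of each group (y axis, number of genes in parentheses) in the 3 samples, with the medians of all genes dashed. Apart from the 4 network genes, all groups shown lay to the left of the dashed line of the same sample.

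The 3′ UTR was next compared with the coding region of the same gene, which shares its mRNA level. In 405 genes of short 3′ UTRs with common bins in both regions, the median of 3′ UTR minus coding log2 IP over input was 0.06, 0.00 and -0.03 in the 3 samples, so that the medians of both regions lay close together. In 4695 genes of longer 3′ UTRs it was 0.51, 0.49 and 0.43. The 3′ UTR was above the coding region in every sample in 120 genes (29.6%) and below it in 114 (28.1%), with backgrounds of 53.1% and 12.9% over all genes. Restricted to bins with more than 30 IP reads in each sample, 122 genes of short 3′ UTRs remained. Of those with such bins in both regions, 46.8% had the 3′ UTR above. The share over all genes was not computed under this restriction, so that the backgrounds above do not apply to it. Among genes with 20 or more input reads per bin in both regions, the medians were 0.08, 0.00 and -0.02 for 240 genes of short and 0.39, 0.35 and 0.31 for 1134 genes of longer 3′ UTRs.

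Single genes departed from this. HSP90AB1 had coding values of -1.43, -2.62 and -1.90, so that its 3′ UTR was higher by 1.56, 2.10 and 1.66. GSN was higher in the 3′ UTR by 1.25, 2.24 and 1.55, UBE2C by 1.47, 1.45 and 0.64 and CLTA by 1.199, 1.42 and 0.70. The coding region of UBE2C was itself at 0.96, 1.53 and 2.45. CAVIN3 was lower in the 3′ UTR by 1.56, 1.96 and 1.28 (coding minus 3′ UTR), with coding values of -0.81, -0.52 and -1.36. Of the 405 genes, 6 had a 3′ UTR at least 2-fold above the coding region in every sample (1.48%), against 14.5% of those with longer 3′ UTRs.

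GREs were present in 72 of the 491 short 3′ UTRs with common bins (14.7%, Wilson 95% interval 11.8 to 18.1%) and in 172 of the 2335 short 3′ UTRs without (7.37%, 6.38 to 8.50%). The former were longer, with a median of 194 nt against 153 nt, and they held 1.75 against 0.968 GRE starts per 1000 nt. Genes of longer 3′ UTRs with common bins held 1.64 per 1000 nt, and 76.5% of them had a GRE. The 72 genes with a GRE had medians of -0.85, -1.74 and -1.29, of which 27 were under input (37.5%), and the 419 without had -1.17, -2.08 and -1.86, of which 238 were under input (56.8%). Input per bin was 31.6 reads in the former and 38.8 in the latter, and its part in this difference was not tested. CLTA had a GRE and UBE2C did not.

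The 20-nt sequences of the bins were compared with the bins of longer 3′ UTRs and with the 2674 windows of the same short 3′ UTRs that were not common. UGU stood in 36.1% (interval 33.9 to 38.4%) of the bins, in 37.3% of the bins of longer 3′ UTRs and in 33.2% (31.5 to 35.1%) of the other windows. GUGU stood in 8.65%, 7.93% and 6.88%, UUUU in 13.7%, 19.2% and 15.1% and CUG in 40.9%, 33.0% and 38.8%. The bins of short 3′ UTRs were richer in C (23.8% against 19.7%) and poorer in U (29.3% against 32.5%) than those of longer ones. AAUAAA stood in 4.84%, 1.47% and 7.67%, and 302 of the 491 genes (61.5%) had it in the last 50 nt of a 3′ UTR block. The motifs were searched on the transcript strand only, and GUGU contains UGU.

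Bins with UGU had slightly higher ratios, and so had bins with UUUU. Medians were -0.76, -1.74 and -1.55 in 627 bins with UGU and -1.08, -1.96 and -1.70 in 1108 bins without. With GUGU they were -0.54, -1.66 and -1.50 in 150 bins, and without it -0.99, -1.91 and -1.69 in 1585. With UUUU they were -0.76, -1.74 and -1.44 in 237 bins, and without it -1.01, -1.92 and -1.70 in 1498. With CUG they were -0.91, -1.86 and -1.64, and without it -0.98, -1.93 and -1.66. Bins of 1 gene share reads, and these differences were not tested.

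The 2 cell lines were compared after centring each sample on its median over all genes. SK-Mel-103 lay above both UACC-62 replicates in 304 of the 491 genes (61.9%) and below both in 77 (15.7%), with backgrounds of 33.7% and 40.8%. At 20 or more input reads per bin it was above in 254 of 369 (68.8%), with a background of 52.7%, and below in 49, with a background of 21%. SK-Mel-103 had 1 sample, and its library and the line cannot be told apart. Before centring, the median absolute difference between the UACC-62 replicates was 0.44. Replicate 3 was higher than replicate 1 in 325 of 491 genes. Its uncentred median over all genes was higher as well (-0.59 against -0.75). Across the 491 genes, Spearman's rho of the ratio was 0.70 between the UACC-62 replicates and 0.61 and 0.63 between SK-Mel-103 and each of them, as a description over genes that share libraries. Across the 6725 genes of longer 3′ UTRs it was higher, at 0.90, 0.83 and 0.82 for the same pairs.

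Among genes named here, POLR2G, an RNA polymerase II subunit, had 136, 34 and 74 IP reads over 83, 105 and 105 input reads and log2 ratios of 0.33, -1.76 and -1.20. LDHB, the lactate dehydrogenase B subunit, had -1.03, -2.46 and -2.18, and S100A13 had -0.70, -2.91 and -1.77. In these 3 genes SK-Mel-103 was the highest sample, also after centring. UBE2C and GSN were the other way after centring, with SK-Mel-103 below both UACC-62 replicates by 0.95 and 0.37.

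Some bins could not be assigned to 1 gene or region. Of the 1735 bins, 102 lay in the 3′ UTR of more than 1 gene, 84 of them also in a 3′ UTR of 300 nt or more, and 161 were coding in another transcript. A copy of the 32 bases centred on the bin existed elsewhere in the genome for 213 bins (12.3%), against 7.72% of the bins of longer 3′ UTRs. Common bins within 500 nt past the annotated end and outside exons were found for 29 genes (5.91%).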

How the data were processed

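RIP-Seq was analysed in 3 IP samples of CELF1, each with its own input, from 2 melanoma cell lines. According to the methods and the submitters' processing notes, 40-nt single-end reads were aligned to GRCh37 with TopHat (library type fr-firststrand, up to 20 hits per read; the notes name TopHat2 2.0.4, Bowtie 0.12.7 and SAMtools 0.1.16), and Piranha 1.2.1 was run on 20-bp bins by zero-truncated Poisson regression with input as the covariate. Per sample, the authors deposited passing bins only, with the count of IP reads, a p-value under 0.05 (whether corrected is not given in the sources used here) and a covariate. This deposited ratio was a whole multiple of 1 step in all bins (relative tolerance 2e-05), apart from 0.01 in bins without input, and was divided by the step to recover input reads. The study's filter of more than 30 reads is not applied in the deposited lists.

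Bins were assigned to 3′ UTRs of GENCODE 44 lifted to GRCh37, stop codons left out, on the strand opposite to the listed one, which follows from the library type. Reads were summed per gene, divided by totals over listed bins, and compared as log2 with 1 read added. Intervals are Wilson 95%. They cover counting error only, since reads carry no molecular identifiers. Named genes were, among those with 3 or more bins and over 30 IP reads per sample, the 10 with the highest lowest value and the 5 with the lowest highest value. The 10 with the largest share of IP reads, up to 4 per gene group by that share and the network genes were added. The members and the 21 gene lists were chosen with earlier results of these data known. The scripts that sum reads and count genes past 2-fold were checked on simulated counts with known answers, which gives no error rate for the calls. Figures were drawn with matplotlib 3.10.9, intervals computed with scipy 1.17.1 and tables handled with pandas 2.3.3 and numpy 2.4.6 under Python 3.11.15. Alternatives covered read, p-value and length limits, strand, scaling, pseudocount, shared or repeated bins, GRE mismatches and leaving out each UACC-62 replicate. Limits on input reads and on bins per gene were chosen after seeing the data.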

Additional observations from a re-analysis of the deposited data

Results flagged for a closer look

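In 3 of the named genes the SK-Mel-103 sample lay above input and both UACC-62 replicates below it, and the difference between the lines was not tested, because SK-Mel-103 had 1 sample. For POLR2G the log2 ratio was 0.33 in the former and -1.76 and -1.2 in UACC-62 replicates 1 and 3. For PTTG1, the securin that holds separase inactive, it was 0.1, -1.74 and -0.61, and for HSP90AB1 it was 0.12, -0.52 and -0.24. HSP90AB1 lay above the median of all genes in every sample, so that its opposite signs were lost after centring. After centring, SK-Mel-103 lay above both UACC-62 replicates by 1.24 in POLR2G, 0.42 in PTTG1 and 0.07 in HSP90AB1. The same pattern was present in 37 of the 491 genes (7.54%), against 8.40% of all genes, and the reverse one in 1 (0.204%), against 2.41%.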

How the results depend on the processing

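No named gene called over or under input reversed the sign of its mean log2 ratio. Genes that were neither, such as HSP90AB1, were not checked for a change of sign. The medians over the genes of short 3′ UTRs stayed below 0 under every alternative. With more than 30 IP reads in each sample, 306 bins in 122 genes remained, with 70 genes under input, a 3′ UTR above the coding region in 46.8% and a median of -2.24 in UACC-62 replicate 1. With a limit of 200 nt there were 682 bins in 260 genes, 0 genes over and 150 under input and a GRE in 11.5%, and with 400 nt there were 2862 bins and 5 genes over input. With the listed strand taken as the transcript strand, 64 bins in 27 genes were left, with 10 genes under input, a GRE in 7.41%, a median of 22.2% of the 3′ UTR in common bins and medians of -0.60, -1.42 and -0.96. Without division by totals, 7 genes were over and 148 under input, with medians of -0.77 (SK-Mel-103) and -1.11 (replicate 3 of UACC-62). Centred on all genes, 7 were over and 156 under input, with medians of -0.84, -1.29 and -1.22. Leaving out each UACC-62 replicate in turn gave 4 to 6 genes over input, a 3′ UTR above the coding region in 33.0 to 34.3% and, with replicate 1 left out, a median of -1.64 in replicate 3. A GRE was present in 3.46% of genes within 1 mismatch and in 0.611% without mismatch. Among genes with 20 or more input reads per bin the median was -2.22 in UACC-62 replicate 1, and among genes with 3 or more bins 146 were under input and 35.9% had the 3′ UTR above the coding region. Shares of calls over all genes were computed only for centring and for the limit on input reads, so that the counts under other alternatives have no background. The causes were not tested. Of the values of single named genes, 748 moved by less than the spread between the UACC-62 replicates and 215 by more. No paired analysis was run beyond setting each IP against its own input, because the results come from no test. Input reads are known only in listed bins, and a low ratio could be listed only at high input, which limits any statement on weakly expressed genes.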
